A study of Homo sapiens with 9 samples.

Results

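A set of 50 genes that build ribosomes was followed in K562 cells, a human erythroleukaemia line, after 24 h of rapamycin. The set was a list of symbols for RNA polymerase I (Pol I), nucleolar and rRNA processing genes. It was put together by function, with earlier results of these data known. All 50 were found among the 58347 Ensembl gene IDs of the deposited count table, and all 50 were among the 23675 genes that passed the filter on low counts. In a growing cell, Pol I transcribes the ribosomal DNA repeats in the nucleolus into 1 long precursor RNA. Small nucleolar ribonucleoproteins (snoRNPs) modify that precursor, and assembly factors fold and cut it into the RNA of the small and the large ribosomal subunit. The kinase complex mTORC1, which rapamycin inhibits, is known to promote this process.

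Every library came from K562-FIRE cells, which stably expressed dCas9 and SS18-Frb from lentiviral vectors and an MS2-Fkbp(1x) fusion, each from the EF1a promoter. Their vectors carried Blast, Puro and Hygro markers respectively. Rapamycin bridges Fkbp and Frb, and so can bring SS18, a subunit of the BAF chromatin remodelling complex, to the DNA site of an MS2-bearing guide. The study asked whether endogenous BAF can raise HBG1 in this way, so all groups, controls included, carried the fusions. The 4 groups were HBG1 promoter sgRNA with DMSO (n = 3), HBG1 promoter sgRNA with 10 nM rapamycin (n = 3), non-targeting sgRNA with 10 nM rapamycin (n = 2) and non-targeting sgRNA with DMSO (n = 1), all for 24 h. The labels do not say whether replicates were separate cultures or clones, so p-values measure only the spread between these libraries.

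Libraries held 19797409 to 31619671 counts. HBG1 itself stood at 137 to 437 CPM (counts scaled to a common library size with TMM) with its guide under DMSO, at 1533 to 2448 CPM with it under rapamycin and at 8233 to 8944 CPM in the 3 non-targeting libraries. Of 8 erythroid genes that K562 cells express, all were present in every library, among them the transferrin receptor gene TFRC at 668 to 825 CPM. Of 8 genes that define other lineages, 3 (CD3E, MS4A1 and ALB) stayed under 1 CPM in every library, and EPCAM was the highest, at 36.9 to 50.01 CPM. Their summed level was 44.1 to 57.3 CPM over the 9 libraries, with overlapping ranges under DMSO and rapamycin. The summed level of the 8 erythroid genes was 10020 to 16820 CPM with the HBG1 sgRNA under DMSO and 10970 to 19870 CPM under rapamycin, and 5395 to 7264 CPM with the non-targeting sgRNA. Its part in the results below was not tested.

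Most of the ribosome biogenesis genes were lower under rapamycin, each by a modest amount. With the HBG1 sgRNA, 37 of the 50 fell and 0 rose (edgeR quasi-likelihood test, Benjamini-Hochberg adjusted p under 0.05 over all genes tested), against 4.05% of all tested genes called lower and 2.75% called higher. Among the 11082 genes at least as abundant as the least abundant of the 50, 8.36% were called lower. The median log2 fold change of the 50 was -0.39, where the median of all tested genes was 0.02. Single values ran from -0.72 (UTP20) to 0.07 (TAF1B), and 49 of the 50 were below 0. In 42 of the 50, all 3 rapamycin libraries lay below all 3 DMSO libraries, a pattern found in 13.1% of all tested genes. By replicate pair, 49, 48 and 49 of the 50 were lower under rapamycin in pairs 1, 2 and 3, with median log2 changes of -0.41, -0.34 and -0.42, and 48 were lower in all 3 pairs (22.4% of all tested genes).

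**Figure D1:**
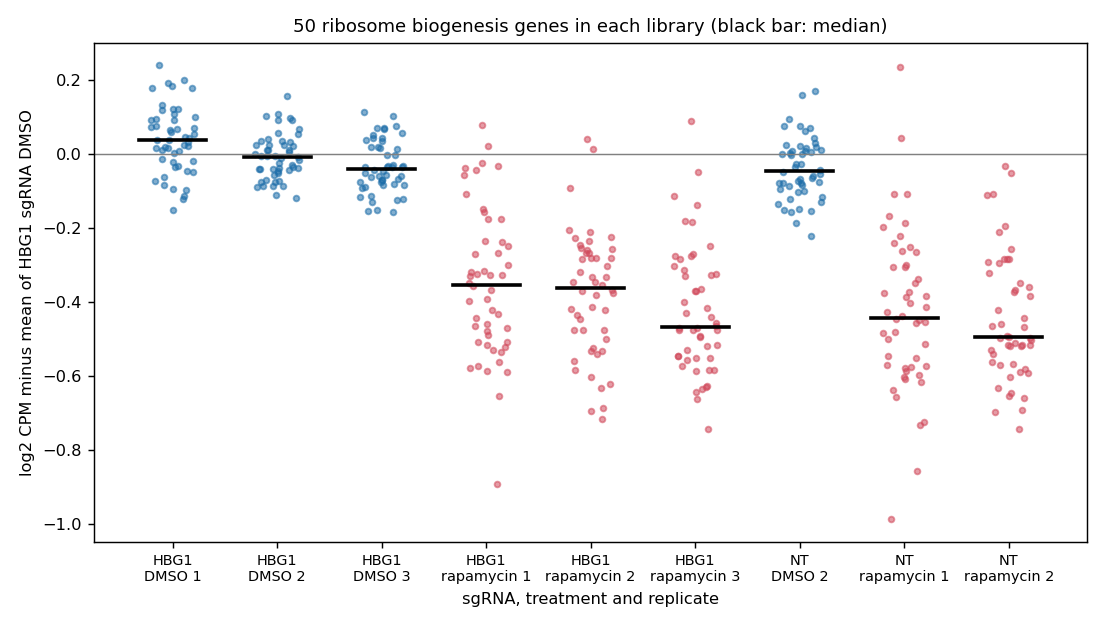
Level of each of the 50 genes in each of the 9 libraries, as log2 CPM minus that gene's mean over the 3 HBG1 sgRNA DMSO libraries (points), with the median of the 50 genes (black bar). The medians of the 4 DMSO libraries lie between -0.05 and 0.04, and those of the 5 rapamycin libraries between -0.50 and -0.35.

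The same fall shows in the raw counts. The 50 genes together took 0.857%, 0.851% and 0.835% of all counts in the HBG1 sgRNA DMSO replicates and 0.676%, 0.667% and 0.662% in the rapamycin replicates. With the non-targeting sgRNA they took 0.817% under DMSO and 0.653% and 0.640% under rapamycin. All 5 rapamycin libraries therefore lay below all 4 DMSO libraries. These shares are relative to the other RNA of each library, and bulk counts cannot tell less RNA per cell from fewer cells that express a gene.

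Compared per length of merged exons, the 50 genes spanned a wide range of levels. NPM1 was the highest, with a mean over the 9 libraries of 315 CPM per kb (271 to 367). DDX21 (117 CPM per kb), FBL (110 CPM per kb), NOP10 (102 CPM per kb) and NCL (91.6 CPM per kb) followed. The ranges of DDX21 (89.2 to 150.3), FBL (100.1 to 127.6), NOP10 (77.8 to 134) and NCL (75.4 to 110.8) over the libraries overlapped. The median gene stood at 25.6 CPM per kb, and the lowest was TAF1A, at 3.19 CPM per kb, with TAF1B next and the ranges of both overlapping. Across the 50 genes, level per kb and log2 fold change were only weakly related (Pearson's r 0.104, Spearman's rho 0.188, a description over genes measured in the same libraries).

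The start regions of the genes were read for CACGTG, the E-box that basic helix-loop-helix factors such as MYC with MAX bind, which reads the same on both strands. The set of RefSeq (GRCh38.p14) start regions used here ran from 250 bases before to 50 after the start. It covered 42 of the 50 genes, some with several starts. That set, rather than RefSeq as a whole, had no entry for POLR1E, NOLC1, NOP58, RRP12, BOP1, RRS1, RRP1B and DDX18, so these genes were not read. Of the 42, 18 (42.9%) held CACGTG in at least 1 of their regions, against 8.77% of all 27305 genes with a region and 12.2% of the 11811 of them that were tested here. In the 50 bases from the start onward 13 of 42 (31.0%) held it, against 1.12% of all genes and 1.64% of tested genes. In the 150 bases before the start the counts were 4 of 42 (9.52%), against 5.64% and 7.93%. The window after the start was added after the positions were seen, so these shares are a description. Among genes that fell, 15 of 30 with a region held a match, and among those not called 3 of 12 did (FBL, NOP10 and GNL2).

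The 30 bases around the match are shown for 9 genes, with CACGTG in capitals, to let the position and flanks be compared. The first 4 are all the genes with a match that lies wholly in the 150 bases before a start, and the other 5 are those with a match after the start and the smallest p in the rapamycin comparison, a choice made after the values were seen.
DDX21: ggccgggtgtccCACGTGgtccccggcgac
UTP20: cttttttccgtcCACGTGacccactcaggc
UTP4: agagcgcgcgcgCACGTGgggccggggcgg
NOP10: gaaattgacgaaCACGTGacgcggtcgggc
LTV1: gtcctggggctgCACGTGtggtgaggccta
NOP2: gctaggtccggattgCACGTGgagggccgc
PES1: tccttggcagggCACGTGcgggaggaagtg
GNL3: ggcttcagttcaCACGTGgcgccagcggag
WDR43: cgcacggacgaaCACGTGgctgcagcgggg
Each is written 5′ to 3′ on the gene's strand. The E-box began 31 bases before a start in DDX21 (chr10:68956604-68956633 (plus strand)), 10 before it in UTP20 (chr12:101280083-101280112 (plus strand)), 16 before it in UTP4 (chr16:69132621-69132650 (plus strand)) and 11 before it in NOP10 (chr15:34343130-34343159 (minus strand)). Counted from 1 at the RefSeq start, it began at base 29 in LTV1 (chr6:143843354-143843383 (plus strand)), base 36 in NOP2 (chr12:6568242-6568271 (minus strand)), base 14 in PES1 (chr22:30591880-30591909 (minus strand)), base 7 in GNL3 (chr3:52686026-52686055 (plus strand)) and base 4 in WDR43 (chr2:28894658-28894687 (plus strand)). A match is a run of letters, and binding there was not measured.

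Pol I itself comes first in the pathway. All 4 subunit genes fell with the HBG1 sgRNA, with a median log2 fold change of -0.41. POLR1C (ENSG00000171453, chromosome 6, 43509702 to 43562419; all gene positions are those of GENCODE 29 on GRCh38) encodes a subunit that Pol I shares with Pol III. It stood at 59.1, 55.2 and 52.04 CPM in DMSO replicates 1, 2 and 3 and at 44.1, 37.5 and 39.8 CPM in the rapamycin replicates. The groups did not overlap, and POLR1C fell by 27.1% (log2 fold change -0.46, SE 0.09, adjusted p = 0.00646). POLR1A (ENSG00000068654, chromosome 2, 86020216 to 86106155) encodes the largest subunit of the enzyme. It stood at 164, 182.4 and 179.8 CPM in DMSO replicates 1, 2 and 3 and at 117, 144 and 136 CPM in the rapamycin replicates. Rapamycin replicate 1 was the lowest library, the groups did not overlap, and POLR1A fell by 24.7% (log2 fold change -0.41, SE 0.08, adjusted p = 0.00839). With DMSO replicate 2 left out, POLR1A missed the threshold (adjusted p = 0.0539). POLR1B, the second-largest subunit, and POLR1E, a subunit of the heterodimer that acts in initiation, had log2 fold changes of -0.42 and -0.37.

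The factors that start Pol I transcription were mostly not called. Of 6 genes, 1 fell, which was RRN3 (ENSG00000085721, chromosome 16, 15060022 to 15094317), the factor that makes Pol I competent to start and a known target of mTOR signalling. It stood at 56.7, 61.8 and 61.8 CPM in DMSO replicates 1, 2 and 3 and at 40.4, 46.4 and 41.6 CPM in the rapamycin replicates. The groups did not overlap, and RRN3 fell by 28.8% (log2 fold change -0.49, SE 0.09, adjusted p = 0.00322). UBTF (ENSG00000108312, chromosome 17, 44205033 to 44221626) binds along active ribosomal DNA. It stood at 208, 195 and 205 CPM in DMSO replicates 1, 2 and 3 and at 183, 169 and 178 CPM in the rapamycin replicates. The groups did not overlap, yet UBTF missed the threshold (log2 fold change -0.20, SE 0.08, adjusted p = 0.141). With replicate number as a block on the 6 HBG1 sgRNA libraries UBTF passed (adjusted p = 0.0249), and with the block on all 9 libraries it did not (adjusted p = 0.0835). The TAF1 genes encode subunits of SL1, which places Pol I at the promoter, and 0 of 4 were called, with 1 (TAF1A) at an unadjusted p under 0.05. Their log2 fold changes were -0.37 for TAF1A, 0.07 for TAF1B, -0.07 for TAF1C and -0.12 for TAF1D. TAF1A and TAF1B had the lowest mean levels of the 50, 9.24 and 13.6 CPM, and the standard error of TAF1A was the largest, at 0.15. Adding a block left all 4 uncalled, and an additive model of guide and treatment over the 9 libraries called TAF1A (adjusted p = 0.0231). Whether RRN3 changed by more than the SL1 genes was not tested.

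Among the abundant nucleolar proteins and regulators of ribosomal DNA, 4 of 5 fell. NOLC1 (ENSG00000166197, chromosome 10, 102152176 to 102163871) is a chaperone that carries snoRNPs to the nucleolus. It stood at 287, 288 and 275 CPM in DMSO replicates 1, 2 and 3 and at 199, 204 and 193 CPM in the rapamycin replicates. The groups did not overlap, and NOLC1 fell by 29.99% (log2 fold change -0.51, SE 0.07, adjusted p = 0.000313). NCL (ENSG00000115053, chromosome 2, 231453531 to 231483641), nucleolin, binds the nascent precursor RNA. It stood at 768, 758 and 739.8 CPM in DMSO replicates 1, 2 and 3 and at 559, 522 and 527 CPM in the rapamycin replicates. NCL fell by 29.01% with no overlap (log2 fold change -0.49, SE 0.06, adjusted p = 0.000337). DDX21, an RNA helicase that acts in Pol I transcription and rRNA processing, and MYBBP1A, a nucleolar regulator of rRNA synthesis, fell with log2 fold changes of -0.57 and -0.35. NPM1, nucleophosmin, was not called: it stood at 1406, 1281 and 1230 CPM in DMSO replicates 1, 2 and 3 and at 1323, 1036 and 1185 CPM in the rapamycin replicates, and the groups overlapped through rapamycin replicate 1 (log2 fold change -0.14, SE 0.08, adjusted p = 0.358). GENCODE 29 names 45 pseudogenes after NPM1, so its reads may be divided among copies.

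Box C/D snoRNPs guide 2′-O-methylation, and 2 of their 4 genes fell. NOP56 (ENSG00000101361, chromosome 20, 2652145 to 2658393), a core scaffold protein, stood at 257, 237 and 238 CPM in DMSO replicates 1, 2 and 3 and at 191, 175 and 167 CPM in the rapamycin replicates. It fell by 27.1% with no overlap (log2 fold change -0.46, SE 0.07, adjusted p = 0.00168). RRP9 (ENSG00000114767, chromosome 3, 51933430 to 51941941) is the protein specific to the U3 snoRNP. It stood at 52.5, 41.9 and 39.9 CPM in DMSO replicates 1, 2 and 3 and at 34.7, 32.9 and 29.9 CPM in the rapamycin replicates. DMSO replicate 1 was well above the other DMSO libraries, and RRP9 fell by 27.7% (log2 fold change -0.47, SE 0.12, adjusted p = 0.0232). Leaving out either of DMSO replicates 1 and 2, or either of rapamycin replicates 2 and 3, ended the call, with adjusted p between 0.0509 and 0.118. The methyltransferase FBL, fibrillarin, had a log2 fold change of -0.23 (adjusted p = 0.0555) and NOP58, the partner of NOP56, one of -0.19 (adjusted p = 0.252). Neither was called in the fit of all 9 libraries without a block, and both passed with the replicate block on the 6 HBG1 sgRNA libraries (FBL adjusted p = 0.00852, NOP58 adjusted p = 0.0363). With the block on all 9 libraries FBL passed and NOP58 did not. FBL was called under 5 of the 19 alternatives, among them 2 edgeR fits without a block, and NOP58 under 1.

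Box H/ACA snoRNPs guide pseudouridylation, and again 2 of 4 genes fell. GAR1 (ENSG00000109534, chromosome 4, 109815510 to 109824740) stood at 59.3, 64.6 and 68.9 CPM in DMSO replicates 1, 2 and 3 and at 53.3, 39.00 and 41.5 CPM in the rapamycin replicates. Rapamycin replicate 1 was the highest of its group but still below all DMSO libraries, and GAR1 fell by 30.6% (log2 fold change -0.53, SE 0.11, adjusted p = 0.00813). The call was lost without rapamycin replicate 3 (adjusted p = 0.0556). DKC1 (ENSG00000130826, chromosome X, 154762742 to 154777689), dyskerin, is the pseudouridine synthase. It stood at 268, 233 and 235 CPM in DMSO replicates 1, 2 and 3 and at 203, 196 and 197 CPM in the rapamycin replicates. It fell by 19.01% with no overlap (log2 fold change -0.30, SE 0.07, adjusted p = 0.0215). Leaving out DMSO replicate 1 or 2, or rapamycin replicate 2 or 3, ended the DKC1 call, with adjusted p between 0.0509 and 0.0887. NOP10 had a log2 fold change of -0.28 and NHP2 one of -0.16, and neither was called. NOP10 passed with the replicate block on the 6 HBG1 sgRNA libraries (adjusted p = 0.0185) but not with the block on all 9.

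**Figure D2:**
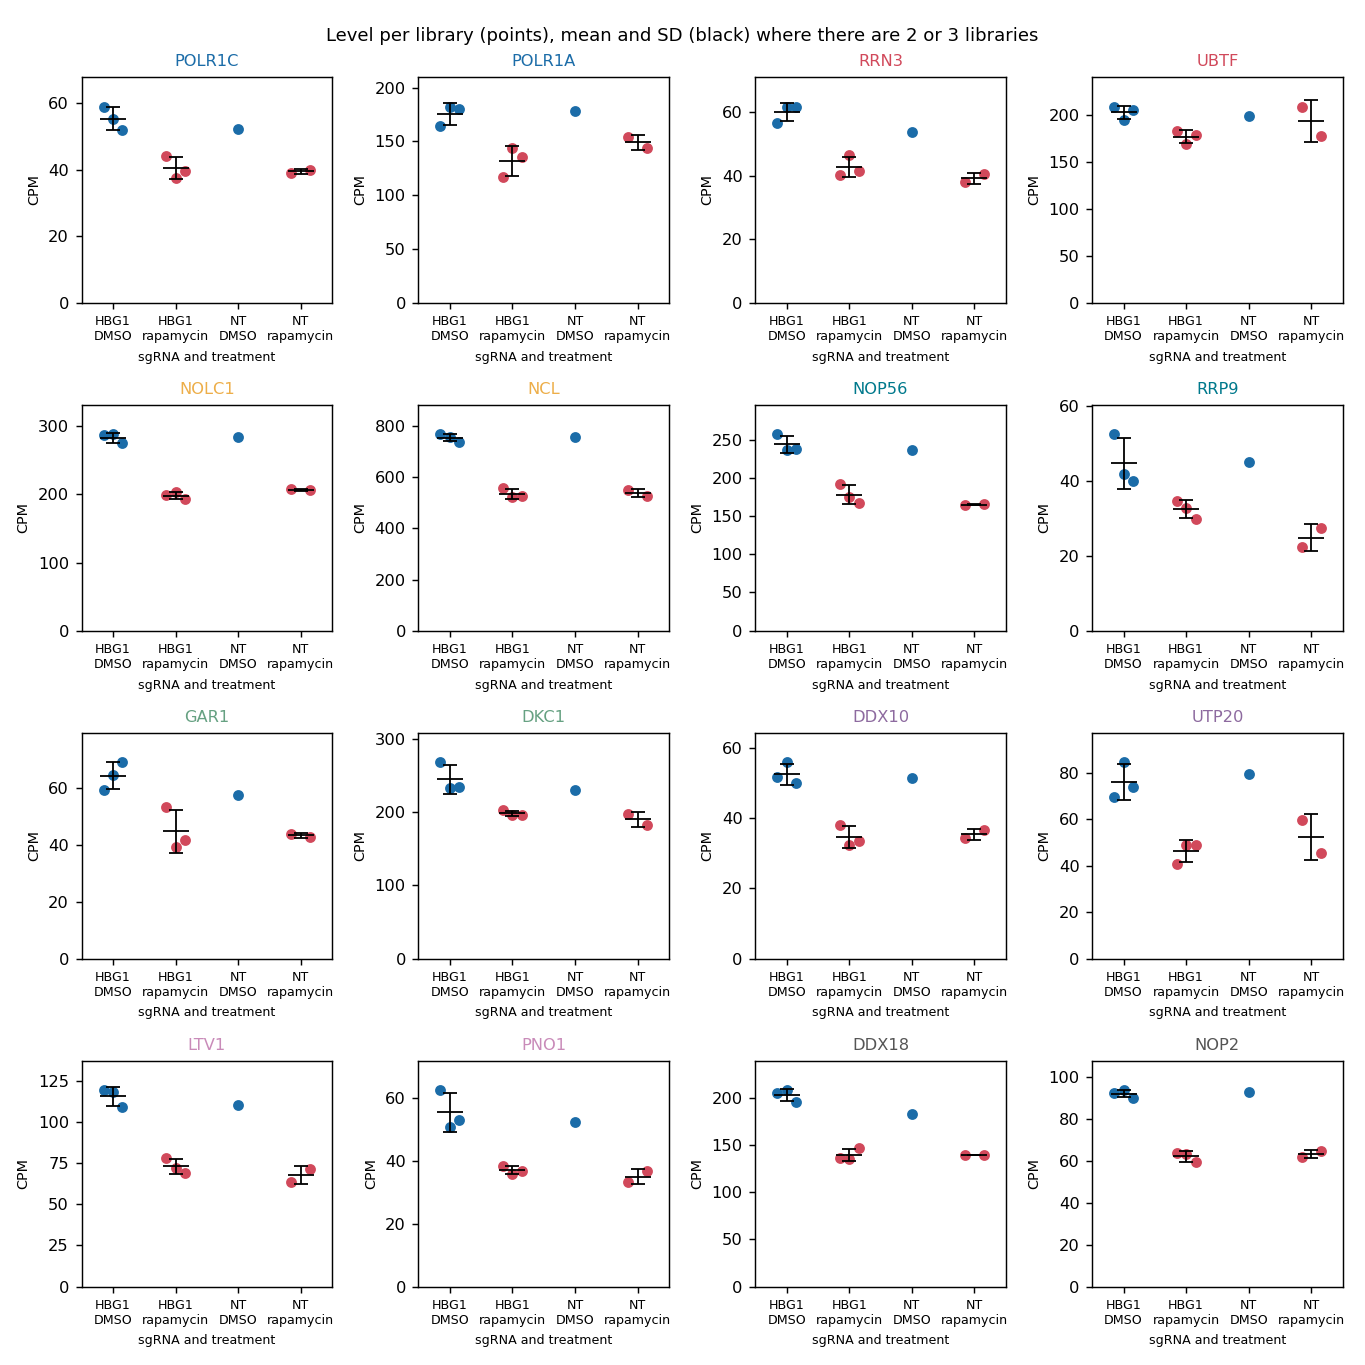
CPM in each library (points; blue DMSO, red rapamycin) for 16 genes, the pair with the smallest p in the rapamycin comparison from each of the 8 role groups, with the mean and SD in black where a group has 2 or 3 libraries. Every panel starts at 0. In all 16, the 3 HBG1 sgRNA rapamycin libraries lie below the 3 HBG1 sgRNA DMSO libraries.

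All 8 early small-subunit genes fell. Their products join the precursor RNA in the small-subunit processome, the first large assembly on it. UTP20 (ENSG00000120800, chromosome 12, 101280109 to 101386616), a very large scaffold protein, had the largest fall of the 50. It stood at 69.8, 84.6 and 74.1 CPM in DMSO replicates 1, 2 and 3 and at 40.9, 48.98 and 49.1 CPM in the rapamycin replicates. The highest rapamycin value lay well below the lowest DMSO value, and UTP20 fell by 39.1% (log2 fold change -0.72, SE 0.11, adjusted p = 0.00136). DDX10 (ENSG00000178105, chromosome 11, 108665025 to 108940930), an RNA helicase, stood at 51.6, 55.8 and 49.9 CPM in DMSO replicates 1, 2 and 3 and at 38.1, 32.4 and 33.5 CPM in the rapamycin replicates. It fell by 34.00% with no overlap (log2 fold change -0.60, SE 0.09, adjusted p = 0.00125). WDR43, UTP15, UTP4 and HEATR1 belong to the part of the processome that is also linked to Pol I transcription. Their log2 fold changes were -0.49, -0.43, -0.40 and -0.34, and those of NOC4L and NOP14, which form a complex in the processome, were -0.33 and -0.28.

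Of the 6 late small-subunit genes, 5 fell. LTV1 (ENSG00000135521, chromosome 6, 143843344 to 143863812), a factor that leaves the pre-40S particle as it matures, had the smallest p of the 50. It stood at 119, 118 and 109 CPM in DMSO replicates 1, 2 and 3 and at 78.2, 71.9 and 69.1 CPM in the rapamycin replicates. LTV1 fell by 36.9% with no overlap (log2 fold change -0.66, SE 0.08, adjusted p = 0.000248), and in GENCODE 29 34.8% of its exon bases are shared with other annotated genes. PNO1 (ENSG00000115946, chromosome 2, 68157844 to 68176238) is the partner of the nuclease NOB1 and stood at 62.4, 50.8 and 52.9 CPM in DMSO replicates 1, 2 and 3 and at 38.4, 35.9 and 36.8 CPM in the rapamycin replicates. It fell by 33.2% (log2 fold change -0.58, SE 0.10, adjusted p = 0.00187). NOB1, which makes the last cut of 18S rRNA, was not called: its groups overlapped, at 103, 98.1 and 89.1 CPM in DMSO replicates 1, 2 and 3 and at 94.03, 90.7 and 78.3 CPM in the rapamycin replicates (log2 fold change -0.14, SE 0.09, adjusted p = 0.397). NOB1 was still lower in each of the 3 replicate pairs (log2 changes -0.13, -0.11 and -0.19). It did not pass with the replicate block on the 6 HBG1 sgRNA libraries (edgeR, adjusted p = 0.144). RRP12, TSR1 and BYSL had log2 fold changes of -0.43, -0.41 and -0.36.

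Of the 13 large-subunit genes, 11 fell, with a median log2 fold change of -0.39. DDX18 (ENSG00000088205, chromosome 2, 117814650 to 117832379), a nucleolar RNA helicase, stood at 206, 208 and 196 CPM in DMSO replicates 1, 2 and 3 and at 136, 136 and 147 CPM in the rapamycin replicates. It fell by 31.4% with no overlap (log2 fold change -0.54, SE 0.07, adjusted p = 0.000313). NOP2 (ENSG00000111641, chromosome 12, 6556863 to 6568691), a methyltransferase of 28S rRNA, stood at 92.5, 93.6 and 90.02 CPM in DMSO replicates 1, 2 and 3 and at 63.8, 63.3 and 59.2 CPM in the rapamycin replicates. The spread within each group was small, and NOP2 fell by 32.6% (log2 fold change -0.57, SE 0.07, adjusted p = 0.000337). Its annotated exons share 54.4% of their bases with another gene on the same strand, so its counts are uncertain, as are those of PPAN (59.8% shared, in part with the read-through gene PPAN-P2RY11, log2 fold change -0.38).

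The 3 genes of the PeBoW complex, which acts in 28S and 5.8S rRNA processing, did not all pass: PES1 (-0.52) and BOP1 (-0.34) fell, and WDR12 (-0.27, adjusted p = 0.108) did so only with the replicate block on 6 libraries (adjusted p = 0.00851) or under 3 other alternatives, which do not include the block on all 9. The calls of the 2 nucleolar GTPase genes were likewise divided. GNL3, nucleostemin, fell (-0.53), while GNL2 had wide, overlapping groups and was not called (-0.27, adjusted p = 0.146). GNL2 was still lower in each of the 3 replicate pairs (log2 changes -0.23, -0.31 and -0.26). It passed with the block on 6 libraries (adjusted p = 0.00385) and on all 9. Whether GNL3 and GNL2 differ was not tested. RRP1B (-0.54), NOC3L (-0.44), NOC2L (-0.39), NOP16 (-0.36) and RRS1 (-0.35) also fell.

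**Figure D3:**
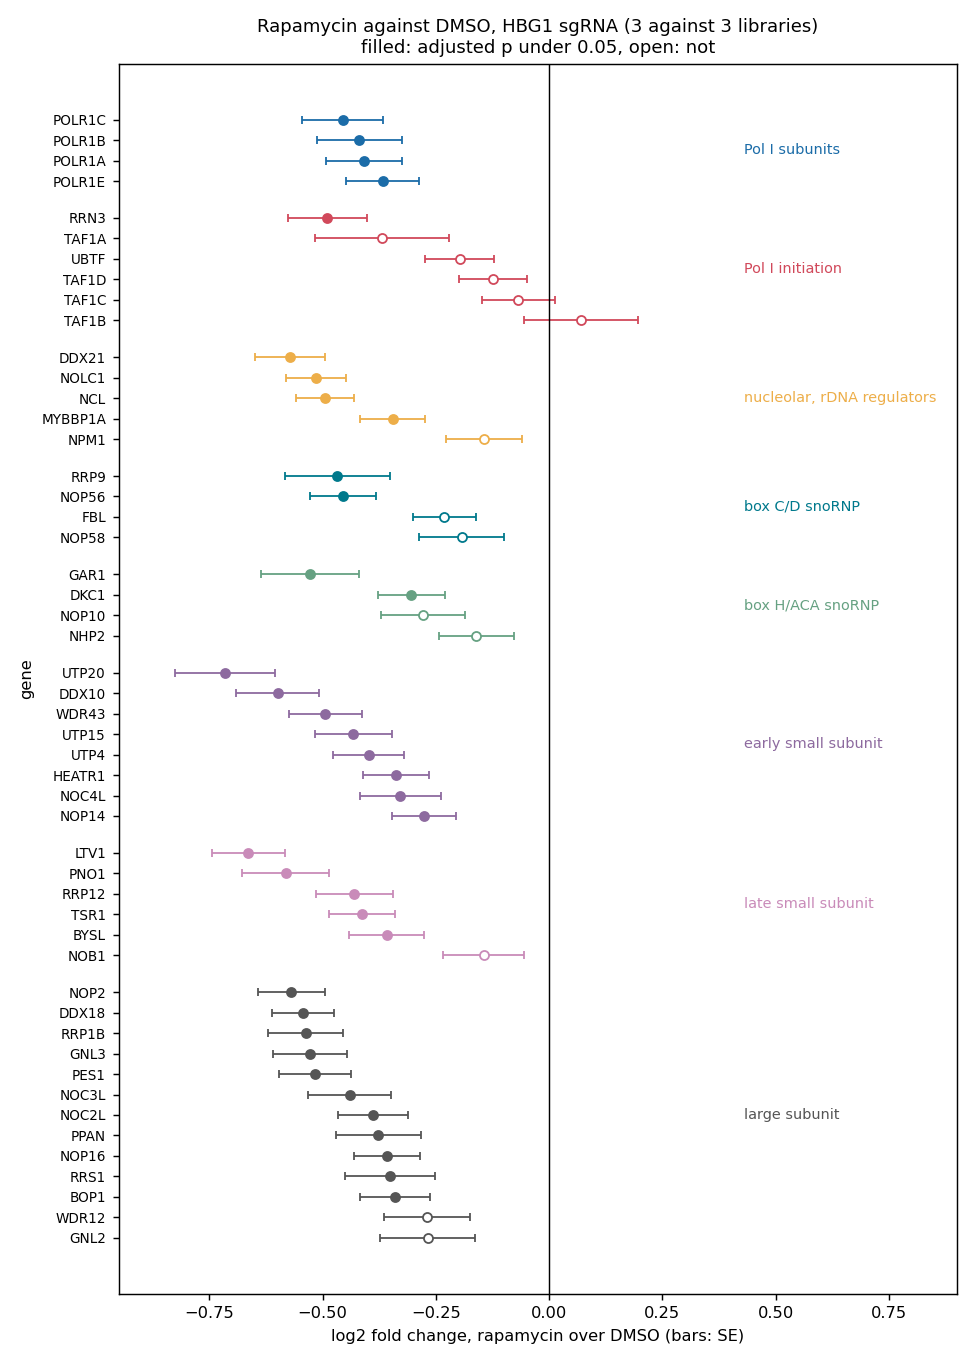
Log2 fold change of each of the 50 genes under rapamycin with the HBG1 sgRNA (points) with its standard error (bars), ordered by role and then by size. Filled points passed the adjusted p threshold. TAF1B alone lies above 0, and 4 of the 5 uncalled Pol I initiation genes are subunits of SL1.

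The replicate block on the 6 HBG1 sgRNA libraries called 43 of the 50 lower and 0 higher, against 9.62% of the 20179 genes it tested called lower. The same 6 libraries without a block gave 36, against 3.91% of those genes. The block on all 9 libraries called 39, against 5.31% of 23675 genes. DESeq2 called 38 lower, against 5.51% of all tested genes. Both blocks kept all 37 calls. The block on 6 libraries added UBTF, FBL, NOP58, NOP10, WDR12 and GNL2, and the block on all 9 added FBL and GNL2. Of the 37, 21 were called under every one of the 19 alternatives tried for this comparison, and 16 lost the call under at least 1. The count was lowest without DMSO replicate 2 or without rapamycin replicate 3, with 25 of the 50 called in each case. The share of all tested genes called in these 2 fits is not given here. A general loss of calls with fewer libraries was therefore not told apart from dependence on these libraries. Besides the 4 genes named above, the calls of POLR1B, POLR1E, MYBBP1A, HEATR1, NOP14, NOC4L, BYSL, NOC3L, BOP1, NOP16, RRS1 and PPAN were lost without at least 1 of the HBG1 sgRNA libraries, with highest adjusted p over the alternatives from 0.0539 (HEATR1) to 0.167 (NOC4L).

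A further 107 genes of the same pathway were read in the same fit. They too were listed by function with earlier results of these data known. Of these, 52 fell and 0 rose, with a median log2 fold change of -0.29, and 98 had a value below 0, against 4.05% of all tested genes called lower and 47.7% below 0. Small-subunit factors were called in 25 of 40 cases, and those with the smallest p were the helicase DHX37 (log2 fold change -0.72, SE 0.09, adjusted p = 0.000285), WDR3 (-0.58) and PWP2 (-0.55). Large-subunit factors were called in 20 of 45 cases, and those with the smallest p were MAK16 (log2 fold change -0.60, SE 0.08, adjusted p = 0.000314), RRP1 (-0.48) and the helicase DDX51 (-0.54). Of 8 further Pol I and ribosomal DNA genes, 3 fell: TCOF1, whose product treacle binds UBTF and Pol I (log2 fold change -0.45, SE 0.07, adjusted p = 0.00182), POLR1F (-0.39) and NOL11 (-0.41). Of 14 genes of the nuclear exosome and its cofactors, which trim precursor RNA, 4 fell, among them EXOSC3 (-0.39), EXOSC7 (-0.38) and EXOSC2 (-0.34). With the replicate block on 6 libraries, 74 of the 107 were called lower (9.62% of the genes tested there) and 1, NOP53, higher (log2 fold change 0.25 and adjusted p = 0.0726 without the block, adjusted p = 0.00454 with it). Whether the 107 and the 50 differ was not tested.

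The same change was then read with the non-targeting guide, in libraries that do not enter the fold changes above. There were 2 rapamycin libraries and 1 DMSO library, so no test was made. The median log2 fold change of the 50 was -0.41, and 49 of the 50 were below 0, against 46.7% of all tested genes. In 47 of the 50 both rapamycin libraries lay below the DMSO library, as in 35.4% of all tested genes. The exceptions were TAF1B, UBTF and TAF1D, all of them Pol I initiation genes. NCL stood at 758 CPM in the DMSO library and 551 and 527 CPM in the rapamycin libraries. LTV1 stood at 111 CPM in the DMSO library and 63.8 and 71.6 CPM in the rapamycin libraries. In both genes the 2 rapamycin libraries were lower. UTP20 stood at 79.7 CPM in the DMSO library and 59.6 and 45.3 CPM in the rapamycin libraries, with its 2 rapamycin values further apart than in the HBG1 sgRNA group. The largest fall with this guide was that of RRP9, at 45.2 CPM in the DMSO library and 22.4 and 27.4 CPM in the rapamycin libraries (log2 fold change -0.86). Across the 50 genes the 2 sets of changes had a Pearson's r of 0.738 and a Spearman's rho of 0.699, a description over genes that share libraries within each set.

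**Figure D4:**
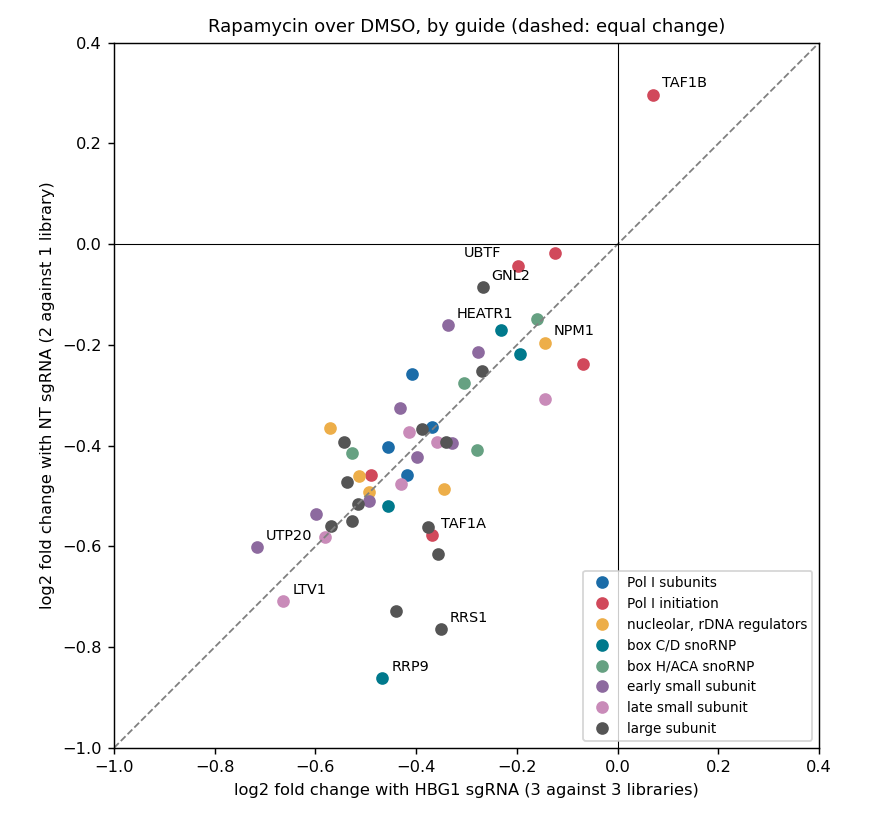
Log2 fold change under rapamycin of each of the 50 genes with the HBG1 sgRNA (x axis, 3 against 3 libraries) and with the non-targeting sgRNA (y axis, 2 against 1 library), coloured by role, with equal change dashed. Of the 50 genes, 49 are below 0 on both axes, and TAF1B is above 0 on both.

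Whether the guide altered this change was tested with the interaction, in which the lone non-targeting DMSO library is assumed to vary like the replicated groups. For the 50 genes it ran from -0.23 to 0.41 on the log2 scale, with a median of -0.00, and 0 were called (edgeR, adjusted p = 1.00 for each, 1 gene at an unadjusted p under 0.05, DESeq2 0), against 0.00422% of all tested genes, and 2.86% at an unadjusted p under 0.05. The smallest p was that of RRS1, a 60S assembly factor, which stood at 43.3, 41.7 and 43.1 CPM in DMSO replicates 1, 2 and 3 and at 36.2, 30.2 and 34.04 CPM in the rapamycin replicates with the HBG1 sgRNA and at 48.01 CPM in the DMSO library and 25.7 and 30.9 CPM in the rapamycin libraries with the non-targeting sgRNA. Its interaction was 0.41 (SE 0.18), with a smaller fall with the HBG1 sgRNA. Standard errors were between 0.12 and 0.27, so even an interaction as large as the fall itself could go uncalled for a single gene. That of RRS1, at 0.41 beside a log2 fold change of -0.35 with the HBG1 sgRNA, was not called.

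The guides were also compared directly in the rapamycin libraries, 3 with the HBG1 sgRNA and 2 with the non-targeting one. Again 0 of the 50 were called (edgeR, adjusted p from 0.773 to 1.00, 6 genes at an unadjusted p under 0.05, DESeq2 0), against 0.0296% of all tested genes, and 6.27% at an unadjusted p under 0.05. The log2 differences ran from -0.18 to 0.38 with a median of 0.05, and 36 of the 50 were above 0 (51.6% of all tested genes). NOP16, which acts in 60S assembly, had the smallest p. It stood at 96.7, 98.4 and 89.5 CPM with the HBG1 sgRNA and at 79.2 and 81.2 CPM with the non-targeting sgRNA under rapamycin. These groups did not overlap, with a log2 difference of 0.24 (SE 0.08, adjusted p = 0.773). Under DMSO, with 1 non-targeting library and no test, the 50 log2 differences between guides ran from -0.17 to 0.23, with a median of 0.05.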

How the data were processed

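RNA was poly-T selected and sequenced in 9 libraries. The deposited values are whole read counts per Ensembl gene, made by the authors. The submitters' processing notes name STAR 2.7.3a, featureCounts, Subread 2.0.0, R 4.1.2, limma 3.34.9, edgeR 3.24.0 and the GRCh38 (hg38) build, with no role or order. The annotation release, the strand setting and the treatment of multi-mapped reads are not given in the sources used here, so overlapping genes and pseudogene copies can share counts. GENCODE 29 gave symbols for 58039 of the 58347 IDs, and 308 had none.

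Genes were filtered with filterByExpr (minimum count 10), which left 23675, and scaled with TMM. The 4 groups of all 9 libraries were fitted together with edgeR 4.0.16 (glmQLFit, R 4.3.3), so that they shared 1 estimate of the spread. Fold changes were called at a Benjamini-Hochberg adjusted p under 0.05 over all genes tested. SE was taken from the F statistic, as the size of the log2 fold change over the root of F. DESeq2 1.42.0, other scalings and filters, replicate blocks and leaving out each library were alternatives. The members and lists were chosen with earlier results of these data known. Values in every HBG1 sgRNA library are given for the 2 members with the smallest p in each of 8 role lists. The member with the smallest p in the interaction is given in every library. For that in the guide comparison the rapamycin libraries are given, and for 3 called genes per list of other pathway genes the fold change. Library values of NPM1, NOB1 and genes shown for the non-targeting sgRNA were added after they were seen.

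Same-numbered HBG1 sgRNA libraries deviated from their group means together (r of 0.553, 0.278 and 0.232 for pairs 1, 2 and 3 over 11498 genes), which met the limit of 0.1 taken as pairing. Only replicate 1 was set apart from the others: r was also 0.258 for rapamycin 2 with DMSO 3 and 0.194 for rapamycin 3 with DMSO 2, so the numbers 2 and 3 are weakly separated. For the rapamycin libraries of both guides, r was -0.0676 and -0.0687 for replicates 1 and 2, which did not meet that limit. The deviations of the 2 non-targeting rapamycin libraries from their mean mirror each other, so these 2 values are not separate checks. Replicates within a group differed by more than sampling noise (chi-square per gene 4.74 to 18.6), so none was the same library sequenced again. Separate libraries made from the same RNA or culture were not excluded by this. Counts were simulated for the HBG1 sgRNA comparison (23675 genes). The fit recovered 27% of 100 genes changed by 0.5 on the log2 scale and 54% of 100 changed by 1. It called 7 unchanged genes. Only 11082 of the tested genes were at least as abundant as the lowest ribosome biogenesis gene, so these rates do not describe that set. The uncalled genes of the set had SE of at most 0.15, and a change of 1 lay several SE from each of their values. A fall of 0.5 cannot be set aside for TAF1A (log2 fold change -0.37, SE 0.15).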

Additional observations from a re-analysis of the deposited data

How the results depend on the processing

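The number of the 50 genes called lower with the HBG1 sgRNA was 37, and 25 to 39 when 1 HBG1 sgRNA library was left out. The share of all genes called lower in those fits is not given here. The number was 43 with a replicate block on the 6 HBG1 sgRNA libraries and 39 with the block on all 9. DESeq2 called 38 (5.51% of all tested genes called lower), upper-quartile scaling 34 (2.84%) and library totals only 35 (3.17%). On the same 6 libraries without a block it was 36, and the share of all genes called lower was 3.91% there and 9.62% with the block (20179 genes), where on all 9 libraries it was 4.05% without and 5.31% with the block (23675 genes). Apart from the calls named beside the results, the blocks changed none for these 50 genes, and 0 were called for the guides or the interaction with or without a block. The median log2 fold change stayed between -0.42 and -0.35 over the 19 alternatives, and 49 genes stayed below 0 in each. With the non-targeting sgRNA the median was -0.41, -0.37 under upper-quartile scaling, and from -0.43 to -0.41 when 1 library was left out. The cause was not tested. The single non-targeting DMSO library limits every comparison that uses it.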
